A study of Sus scrofa with 14 samples.

Results

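Fibroblast nuclei of the pig mammary gland were taken from single-nucleus RNA sequencing of 10 glands and described by stage of the reproductive cycle. Each RNA molecule caught in a droplet or well is counted once by its unique molecular identifier (UMI), and levels below are in CPM, the UMIs of a gene summed over the nuclei of a gland and scaled to 1000000 UMIs. A nucleus counted as a fibroblast nucleus if it had at least 300 detected genes, a UMI in at least 2 of 7 genes typical of fibroblasts (DCN, COL1A1, COL1A2, COL3A1, COL6A3, LUM and ABCA6) and no UMI in any of 8 genes of other cell types. These 8 were EPCAM for epithelium, TP63 for basal epithelium, RGS5 for mural cells, PTPRB and MMRN1 for blood and lymphatic endothelium, CD163 for macrophages, CD3E for T cells and ADIPOQ for adipocytes. The rule took 10564 of the 127926 nuclei with at least 300 detected genes (8.26%), out of 128233 barcodes. The nuclei were thus chosen by the UMIs of these 15 genes, whose levels are a description and carry no test.

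The 10 glands came from multiparous sows in the second breeding cycle, 2 glands at each of 5 stages. The stages were day 90 of gestation (G90), days 0 and 20 of lactation (L0 and L20), and days 2 and 7 of natural involution (PI2 and PI7). The frozen tissue was part of a piece taken from a single region of the mammary gland, no treatment was given, and the RNA is nuclear RNA. The study compared the make-up of the gland and the genes of each cell type between these stages. Values of a stage are given below as replicate 1 and then replicate 2. The methods name independent sows, the labels do not say so, and with 2 glands per stage all p-values measure only the spread between these samples.

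Fibroblasts make and remodel the connective tissue around ducts and alveoli. They secrete fibrillar collagens, small leucine-rich proteoglycans such as decorin and lumican, and enzymes that cross-link or cut the matrix, and they send growth factors to the epithelium. In the mammary gland the stroma is known to be rebuilt as alveoli fill the fat pad in gestation and again when they regress after weaning. Fibroblasts beside vessels and large ducts (adventitial) and those within the glandular tissue (parenchymal) are commonly told apart, the former by PI16 and DPP4 and the latter by COL15A1, CXCL12 and PENK.

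The label was checked on genes that the rule did not use. In nuclei without the 8 excluding genes, the summed level of PDGFRA, CDH11, FAP, ABCA8 and ABCA9, genes known from fibroblasts, was 29.3 to 146 CPM over the glands when no marker gene was detected and 48.2 to 189 CPM with 1. At the threshold of the rule, nuclei with exactly 2 marker genes, which made up 20 to 47.4% of the fibroblast nuclei of a gland (median 27.9%), had 139.8 to 1807 CPM (median 355 CPM). It was 657 to 3488 CPM with 3 marker genes and 1733 to 4402 CPM with 4 to 7. The summed level of 10 luminal epithelial markers ran the other way. It was 1097 to 3272 CPM (median 2316) with 2 marker genes, beside 1092 to 3503 CPM (median 2696) with none, and 143 to 956 CPM with 4 to 7. In 6 of 10 glands nuclei at the threshold carried less luminal RNA than nuclei without any marker, and in 4 more. Nuclei with at least 4 marker genes, 5878 in all (55.6% of those taken), carried the fibroblast genes in every gland. Results are therefore also given for these 5878 nuclei, a limit chosen after the data were seen.

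**Figure D1:**
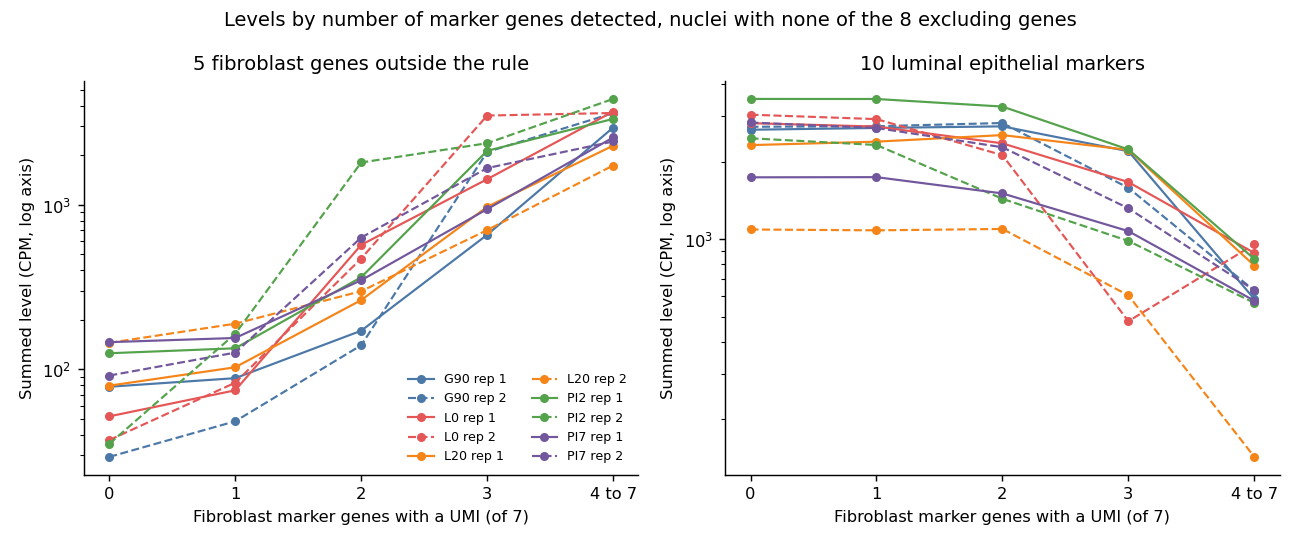
Summed level (CPM, log axis) of 5 fibroblast genes outside the rule (left) and of 10 luminal markers (right) against the number of fibroblast marker genes with a UMI, in nuclei without the 8 excluding genes. Each line is 1 gland, coloured by stage and solid for replicate 1. Fibroblast genes climb to between 1733 and 4402 CPM at 4 to 7 marker genes, where luminal markers are at 143 to 956 CPM.

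Nuclei with an EPCAM UMI were used as a rough guide to how often fibroblast UMIs turned up in nuclei that held epithelial RNA. Fibroblast nuclei with a stray EPCAM UMI and doublets can be among them, and their part in this background was not tested. Between 0.601 and 41.2% of the nuclei with an EPCAM UMI had UMIs in at least 2 of the 7 fibroblast genes. Nuclei with an EPCAM UMI had a median depth of 1940 to 4489 UMIs against 1405 to 2496 UMIs over all nuclei. In L20 replicate 2 they were 843 nuclei, at a median of 4489 against 1922 UMIs. The share of fibroblast nuclei among nuclei without EPCAM was above this background in 4 of 10 glands, namely G90 replicate 2, both L0 glands and PI2 replicate 2. In the 6 other glands the share by the rule was below the background (in L20 replicate 2, 24% against 41.2%), so the shares by the rule below count nuclei that met it and are not read as shares of fibroblasts. With at least 4 marker genes it was above the background in 10 of 10 glands, with the smallest ratio in PI7 replicate 1 (6.17% against 5.73%). The shares were not counted quite alike. Fibroblast nuclei had to lack all the excluding genes, while nuclei with an EPCAM UMI could also have UMIs in the others. After every nucleus was thinned to 500 UMIs, 9035 nuclei (7.06%) met the rule.

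Other cell types left traces in the fibroblast nuclei, and none of the 10 marker lists was empty in any gland. Luminal markers (10 of 12 matched) summed to 313 to 1901 CPM in the fibroblast nuclei and 723 to 3176 CPM in all other nuclei, with at most 1 marker at 0 in a gland. Milk protein genes (4 of 5 matched) summed to 791 and 3065 CPM at G90 and 6983 and 2875 CPM at L0, but to 583 and 54.8 CPM at L20 and 47.2 to 6983 CPM over all glands. The other nuclei had 11372 and 8294 CPM at L0 and 837 and 121 CPM at L20, so the glands labelled day 20 of lactation held less milk protein RNA than those of G90. Glands were grouped by their labels throughout, and whether this level goes against the label was not tested. In the fibroblast nuclei, macrophage markers (8 matched) were highest at PI7 (390.1 and 298 CPM, 114 to 246 CPM in the 8 other glands), and myoepithelial markers (7 matched) were highest at L0 (893 and 1186 CPM). Their part in the results below was not tested.

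The 10 libraries held 18962138 to 53165191 UMIs each, and the fibroblast nuclei 77569 (L0 replicate 2, 55 nuclei) to 9055480 UMIs (L20 replicate 2, 3473 nuclei), at a median of 1193 to 2151 UMIs per nucleus. L20 replicate 2 gave 32.9% of all fibroblast nuclei. Over 13739 genes, which are not replicates, Spearman's rho of the summed fibroblast levels between both glands of a stage was 0.904 (G90), 0.785 (L0), 0.721 (L20), 0.795 (PI2) and 0.871 (PI7). A rho above all of these joined 2 pairs of glands from unlike stages, PI2 replicate 1 with PI7 replicate 2 (0.949) and L20 replicate 2 with PI7 replicate 1 (0.936). The lower same-stage values were exceeded by further pairs. L20 replicate 1 had 0.844 with PI7 replicate 2 and 0.837 with PI2 replicate 2, against 0.721 with L20 replicate 2. For PI2 replicate 2 that 0.837 was also above its 0.795 with PI2 replicate 1. Of 10533 barcodes of fibroblast nuclei, 31 were found in more than 1 gland, at most 9 in a pair.

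Nuclei that met the rule made up from 0.584 to 22.7% of the nuclei of a gland. They were 10.5% (1200 of 11469 nuclei) and 1.78% (332 of 18694) at G90, and 2.29% (263 of 11477) and 0.584% (55 of 9413) at L0. At L20 they were 6.64% (858 of 12927) and 22.7% (3473 of 15323). Of the involution glands, those of PI2 had 13.8% (1720 of 12456) and 1.45% (136 of 9400), and those of PI7 9.93% (1658 of 16691) and 8.62% (869 of 10076). Both L0 glands were low, but G90 replicate 2 and PI2 replicate 2 were as low as L0 replicate 1, and the paired glands of G90, L20 and PI2 lay further apart than most stages. The exact 95% binomial intervals, which cover counting error only, were narrower than these gaps, for example 22.0 to 23.3% in L20 replicate 2 and 0.440 to 0.760% in L0 replicate 2.

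The shares by gland were compared between lactation and the other stages, for the rule first and then for nuclei with at least 4 marker genes, whose share was above the background. The mean was 7.68% ± 5.0 (SD, n = 6) outside lactation, with 1.45, 9.28 and 13.8% as the lowest, median and highest gland, and 8.04% ± 10.1 (SD, n = 4) in lactation. The difference of -0.37 percentage points did not exceed the spread between glands (exact two-sided permutation test over 210 splits, p = 0.943, smallest possible p = 0.00476). It rested on L20 replicate 2, without which it was 4.50 percentage points (p = 0.167 in the exact permutation test), and with L0 alone as lactation it was 6.24 points (exact permutation p = 0.214). With at least 4 marker genes the shares were 4.55 and 1.2% (G90), 1.24 and 0.393% (L0), 2.66 and 14.9% (L20), 7.31 and 0.67% (PI2), and 5.14 and 4.87% (PI7). Their means were 3.96% ± 2.54 outside lactation and 4.8% ± 6.81 in lactation (exact permutation p = 0.843). No test of 2 against 2 glands can go below p = 0.33, and the 4 steps between adjacent stages gave exact permutation p from 0.33 to 1.

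**Figure D2:**
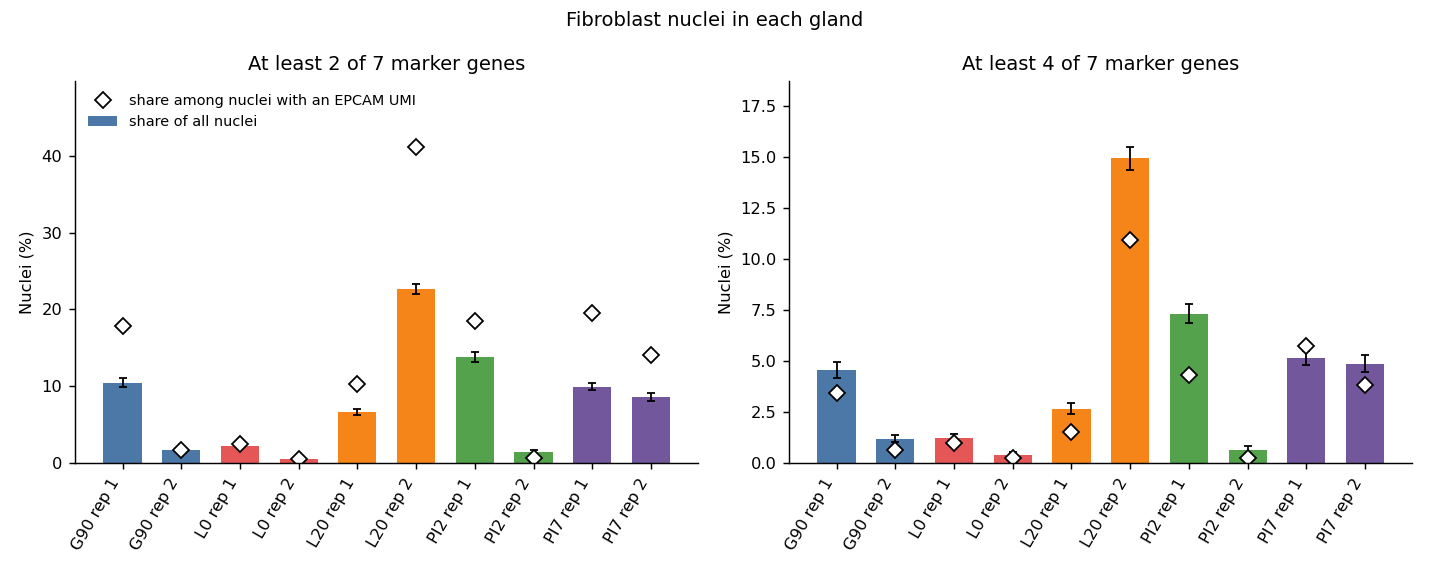
Share of nuclei (%, bars with exact 95% binomial intervals) that met the rule with at least 2 marker genes (left) or at least 4 (right), for each gland, coloured by stage. Diamonds give the share of nuclei with an EPCAM UMI that had as many marker genes, which lies above the bar in most glands on the left (41.2% in L20 replicate 2) and below it in all but 1 gland on the right, PI7 replicate 1 (5.73% against a bar of 5.14% of all nuclei, or 6.17% of those without EPCAM).

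Among the genes of the rule, the 7 marker genes summed to 8363 and 8256 CPM (G90), 9647 and 11938 (L0), 9162 and 15960.4 (L20), 5984 and 6212 (PI2) and 7495 and 6133 (PI7). The 4 lactation glands lay above the 6 others, but not in nuclei with at least 4 marker genes, where G90 replicate 1 (15877 CPM) was above L0 replicate 1 (14826 CPM). COL1A1 (ENSSSCG00000036135, chromosome 12, 26379087 to 26397180 on Sscrofa11.1), a chain of type I collagen, was at 1899 and 1352 CPM (G90), 1806 and 2462 (L0), 2312 and 3254 (L20), 992 and 918 (PI2) and 1051 and 907 (PI7). COL1A2 (chromosome 9, 74174484 to 74210407), its partner chain, and COL3A1 (chromosome 15, 93556914 to 93595678), type III collagen, were likewise lowest in the 4 involution glands, at 819 to 1386 and 864 to 1698 CPM, against 1962 to 3060 and 1839 to 3643 CPM in the 6 earlier glands.

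DCN (chromosome 5, 91678601 to 91713925), the collagen-binding proteoglycan decorin, was highest in L20 replicate 2 (2314 CPM) and at L0 (1212 and 1650 CPM) and lowest in PI2 replicate 2 (322 CPM), which gave it a different order from the collagens. LUM (chromosome 5, 91748871 to 91756381), lumican, ranged from 144 CPM in PI2 replicate 1 to 857 CPM in L20 replicate 1. COL6A3 (chromosome 15, 137011549 to 137103687), a chain of the beaded-filament type VI collagen, was at 779 and 766 CPM at G90 and 794 and 889.5 CPM at L0 and reached 2178 CPM in PI2 replicate 2. ABCA6 (chromosome 12, 11225068 to 11369161), a lipid transporter of the ABC family, split the glands in another way, with 353, 229 and 147 CPM in G90 replicate 1, L20 replicate 1 and PI2 replicate 2, and 1021 to 1470 CPM in the other 7. The replicates of 3 stages thus stood on opposite sides of this gap. The share of fibroblast nuclei with an ABCA6 UMI was 16.9 to 28.8% in those 3 glands and 51.7 to 69.5% in the others.

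Genes outside the rule with the largest excess over the other nuclei of the same gland were named as a description. All 20 were higher in the fibroblast nuclei in 10 of 10 glands, with a median difference over glands of 3.59 to 4.04 on the log2(CPM + 1) scale. The receptors among them were PDGFRA, the receptor of platelet-derived growth factors that defines mesenchymal fibroblasts (369 ± 229 CPM, SD, n = 10, against 23.9 CPM in other nuclei), RXFP1, the receptor of relaxin (259 ± 175 against 16.9 CPM), the adhesion receptor ADGRD1 (451 ± 247 against 27.1 CPM) and CD248, endosialin (85.2 ± 38.2 against 4.83 CPM). Secreted signals were SFRP2 and DKK2, which bind or block Wnt signalling (1205 ± 852 and 181 ± 220 CPM), VEGFD, a lymphatic growth factor (134 ± 55.9 CPM), and FGF10, which acts on epithelium (108 ± 84.8 CPM). Matrix genes were COL6A1, MFAP5 of the microfibrils, POSTN (periostin), EGFLAM and PI16, and the gelatinase-like protease FAP was at 359 ± 136 against 27.8 CPM. CDH11, the cadherin of mesenchymal cells, was at 641 ± 399 against 26.8 CPM. The homeobox genes ALX4 and SHOX2, the RNA-binding BICC1 (1197 ± 458 CPM), the adhesion molecule CLMP and the transporter ABCA8 made up the rest. In nuclei with at least 4 marker genes the median differences of the same 20 genes were 4.01 to 5.04.

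Genes were tested between stages on UMIs summed over the fibroblast nuclei of each gland, with edgeR's quasi-likelihood test in 1 fit of all 10 glands over 13739 genes. The biological coefficient of variation between glands was 0.504. A call needed a Benjamini-Hochberg adjusted p under 0.05 and a change over 1 on the log2 scale, and 0 genes (0%) were called in each of the 5 comparisons. At an unadjusted p under 0.05 with the same fold, 319 genes were higher (2.32%) and 434 lower (3.16%) at L0 than at G90. From L0 to L20, 480 were higher (3.49%) and 291 lower (2.12%), and from L20 to PI2, 173 were higher (1.26%) and 369 lower (2.69%). From PI2 to PI7, 276 were higher (2.01%) and 83 lower (0.604%), and in the 6 glands outside lactation against the 4 of lactation 269 were higher (1.96%) and 278 lower (2.02%). The genes named below are therefore descriptions of these glands, and the absence of calls does not show that genes kept their level. In this order of the comparisons, DESeq2 made 29, 33, 3, 4 and 28 calls. With at least 4 marker genes edgeR again called 0 genes in each comparison, with 724, 762, 499, 241 and 522 genes at an unadjusted p under 0.05 and the same fold. Of the 11379 genes tested there, 263 were higher and 461 lower from G90 to L0 by this unadjusted criterion. In the later comparisons 466 were higher and 296 lower, then 184 and 315, 163 and 78, and 283 and 239. Over all 13739 genes of the main fit the median log2 fold change was -0.16, 0.25, -0.06, 0.00 and 0.05, and the values below are set beside it.

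From G90 to L0, that is around farrowing, the 3 genes with the smallest p in each direction were STOM, ADM and FOXP2, higher at L0, and HS3ST1, PIK3R3 and SFMBT2, lower at L0. ADM (chromosome 2, 49229223 to 49231521), adrenomedullin, a vasodilator peptide, was at 11.5 and 37.2 CPM at G90 and 254 and 245 CPM at L0, and at 16.7 to 42.4 CPM in the later stages. It was high in the L0 glands alone, at 386 and 344 CPM in nuclei with at least 4 marker genes and 5.64 and 0.909 CPM in the other nuclei of those glands. Its log2 fold change was 3.37 ± 0.71 (SE from edgeR, 2 glands per stage, adjusted p = 0.742). STOM (chromosome 1, 261380087 to 261407713), the membrane protein stomatin, was at 33.8 and 24.4 CPM at G90 and 182 and 168 CPM at L0 (log2 fold change 2.60 ± 0.53), and at 31.4 and 9.75 CPM in the other nuclei of L0. FOXP2 (chromosome 18, 31335102 to 31890523), a forkhead transcription factor, was at 60.8 and 14.0 CPM at G90 and 284 and 309 CPM at L0 (log2 fold change 2.98 ± 0.64). Other nuclei of the same glands had more of it, 80.1 and 28.2 CPM at G90 and 705 and 579 CPM at L0, and the part of their RNA in this difference was not tested.

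The polycomb-group gene SFMBT2 (chromosome 10, 63877033 to 64070867) was at 96.6 and 122 CPM at G90 and 15.2 and 0 CPM at L0, against 50 to 77.1 CPM later (log2 fold change -3.17 ± 0.72). PIK3R3, a regulatory subunit of phosphoinositide kinase, was at 228 and 265 CPM at G90 and 26.0 and 25.8 CPM at L0 (log2 fold change -3.22 ± 0.72), and the heparan sulfate sulfotransferase HS3ST1 (chromosome 8, 7389774 to 7424558) at 124 and 80.3 CPM at G90 and 2.17 and 0 CPM at L0. Both were higher in other nuclei than in fibroblast nuclei in each G90 and L0 gland. All 6 genes had an edgeR adjusted p of 0.742. Of these 6, DESeq2 called ADM, STOM, FOXP2, PIK3R3 and SFMBT2.

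DESeq2's 29 calls from G90 to L0, 21 of them higher at L0, included matrix and secreted genes of the lists below, which were picked after their values were seen. MGP, an inhibitor of calcification, was at 371 and 383 CPM at G90 and 2970 and 2037 CPM at L0, and at 324 to 1173 CPM later. At L0, ASPN, the small proteoglycan asporin, was at 260.1 and 412 CPM after 48.3 and 43.1 CPM at G90. PI16, a marker of adventitial fibroblasts, was at 290.5 and 503 CPM after 112 and 32.6 CPM. The complement inhibitor SERPING1 was at 531 and 489.9 CPM after 71.6 and 104 CPM. The part of the RNA of other nuclei in the levels of these genes was not tested. HGF, a growth factor for epithelium, was at 99.7 and 258 CPM after 22.7 and 32.6 CPM at G90. IGFBP7, a secreted binding protein, was at 830.3 and 722 CPM after 236 and 135 CPM, and MFAP4 of the elastic microfibrils at 193 and 219 CPM after 48.0 and 18.6 CPM. The edgeR log2 fold changes of HGF, IGFBP7 and MFAP4 were 2.56 ± 0.64, 2.09 ± 0.49 and 2.62 ± 0.68, none past the adjusted threshold.

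From L0 to L20 the smallest p-values belonged to SLC4A4, FOS and KCNK13, higher at L20, and PIK3C2G, MYH11 and SLITRK6, lower at L20. FOS (chromosome 7, 98449508 to 98451971), an immediate early transcription factor, was at 41.2 and 90.2 CPM at L0 and 936 and 304 CPM at L20, but also at 816 and 239.7 CPM at G90, so L0 was the low stage (log2 fold change 3.42 ± 0.77, edgeR adjusted p = 0.455). Other nuclei had 456 and 41.6 CPM (G90), 19.4 and 15.8 (L0) and 848 and 289.8 (L20). SLC4A4 (chromosome 8, 67768955 to 68177213), a sodium bicarbonate cotransporter, was at 43.4 and 38.7 CPM at L0 and 359 and 202 CPM at L20 (log2 fold change 2.73 ± 0.59), and at 517 and 134 CPM in the other nuclei of L20. KCNK13 (chromosome 7, 111866471 to 111981304), a potassium channel, was at 2.17 and 0 CPM at L0, 22.8 CPM in L20 replicate 1 and 195 CPM in L20 replicate 2, so that its level at L20 rested on 1 gland.

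MYH11 (chromosome 3, 7002667 to 7143093), the myosin of smooth muscle, was at 624 and 1018 CPM at L0 and 25.9 and 50 CPM at L20 (log2 fold change -4.32 ± 0.72, edgeR adjusted p = 0.277). In nuclei with at least 4 marker genes it was at 590 and 95.7 CPM at L0 and 13.9 and 30.8 CPM at L20. It is also a marker of myoepithelium, whose list was highest in the fibroblast nuclei of L0, at 893 and 1186 CPM beside 701 and 93.8 CPM at L20, and of mural cells, whose markers were at 531 and 297 CPM at L0 and 165 and 128 CPM at L20. SLITRK6 (chromosome 11, 56508713 to 56522270), a membrane protein of neurite growth, was at 54.2 and 155 CPM at L0 and 0.615 to 10.5 CPM in the 8 other glands (log2 fold change -6.16 ± 1.14), with 18.9 and 6.72 CPM in the other nuclei of L0. PIK3C2G (chromosome 5, 54474623 to 54849520), a lipid kinase, had the smallest p of all genes in this comparison, with 375 and 271 CPM at L0 and 17.5 and 27.3 CPM at L20 (log2 fold change -3.82 ± 0.58, edgeR adjusted p = 0.234). It was at 1011 and 1003 CPM in the other nuclei of L0, and its direction turned once an estimate of free RNA was subtracted (log2 fold change 6.0). All 6 were among the 33 DESeq2 calls, 28 of which were lower at L20.

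From L20 to PI2, that is over weaning, IGFBP2, LMCD1 and MTSS2 were higher at PI2 and TREH, CPSF6 and PDK4 lower by the smallest p-values. IGFBP2 (chromosome 15, 118822092 to 118850985), a binding protein of insulin-like growth factors, was at 36.5 and 27.7 CPM at L20 and 83.0 and 834 CPM at PI2, after 105 and 102 CPM at G90 and 1004 and 554 CPM at L0, and at 65.6 and 62.7 CPM at PI7. Levels were thus high at L0 and in PI2 replicate 2 and low in the other 7 glands, while other nuclei held 4.44 to 29.9 CPM. Its log2 fold change was 3.83 ± 0.87 (edgeR adjusted p = 1), and 1.19 without PI2 replicate 2. MTSS2, an actin and membrane regulator, was at 35.8 and 14.8 CPM at L20 and 128 and 141 CPM at PI2 (log2 fold change 2.41 ± 0.63), and both PI2 glands lay above all others.

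LMCD1 (chromosome 13, 64933692 to 64994204), a LIM-domain regulator, was at 12.9 and 20.0 CPM at L20 and 180 and 30.1 CPM at PI2, with most of the PI2 level in replicate 1, where other nuclei had 309.6 CPM. PDK4 (chromosome 9, 75246956 to 75260134), which restrains glucose oxidation, was at 161 and 328 CPM at L20 and 61.3 and 33.5 CPM at PI2 (log2 fold change -2.39 ± 0.55), and again at 201 and 289 CPM at PI7. Other nuclei were at 164 and 497 CPM at L20 and 99.8 and 106 CPM at PI2. The disaccharidase gene TREH was at 32.7 and 20.6 CPM at L20 and 0.649 and 0 CPM at PI2, and the RNA-processing gene CPSF6 at 69.2 and 96.2 CPM and 1.62 and 10.1 CPM. At PI7 TREH was again at 17.5 and 26.45 CPM and CPSF6 at 76.1 and 80.6 CPM. At G90 and L0 they ranged over 0 to 2.33 and 1.16 to 13.1 CPM. Both were higher in the other nuclei than in the fibroblast nuclei of each L20 gland. Other nuclei had 94.9 and 356 CPM of CPSF6 at L20, 5.35 and 1.4 CPM at PI2 and 147 and 106 CPM at PI7. After subtraction of free RNA the direction of CPSF6 turned (log2 fold change 5.64). Each of the 6 had an edgeR adjusted p that rounded to 1. DESeq2's 3 calls were IGFBP2, CPSF6 and LPL, the lipoprotein lipase gene, at 41.8 and 607 CPM at L20 and 23.4 and 13.4 CPM at PI2.

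From PI2 to PI7 the genes higher by the smallest p were ACP5, MMP9 and ATP6V0D2. ACP5 (chromosome 2, 70206159 to 70209855), the tartrate-resistant acid phosphatase of macrophages and osteoclasts, was at 4.22 and 0 CPM at PI2 and 522 and 74.4 CPM at PI7 (log2 fold change 6.36 ± 1.01, edgeR adjusted p = 0.327). MMP9, gelatinase B, was at 0.649 and 3.35 CPM at PI2 and 246 and 58.4 CPM at PI7, and ATP6V0D2, a proton pump subunit, at 1.30 and 0 CPM and 112 and 30.8 CPM. PI7 replicate 1 held most of all 3, and the other nuclei of that gland had 455, 198 and 108 CPM. Macrophage markers in the fibroblast nuclei stood beside them at 169 and 114 CPM at PI2 and 390.1 and 298 CPM at PI7, and 5 of the 8 were higher at PI7 by the unadjusted criterion (CSF1R, CD68, MSR1, C1QA and C1QB). In nuclei with at least 4 marker genes ACP5 was at 117 and 63.2 CPM at PI7. These 3 genes and SPP1, osteopontin, at 121 and 43.5 CPM at PI2 and 2717 and 785 CPM at PI7, were DESeq2's 4 calls.

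Lower at PI7 by the smallest p were MMP23B, IGFBP2 and PTX3, of which MMP23B and IGFBP2 were higher in fibroblast nuclei than in other nuclei in 10 of 10 glands. MMP23B, a membrane-bound metalloproteinase, was at 70.4 and 141 CPM at PI2 and 20.1 and 23.4 CPM at PI7, and at 39.6 to 97.6 CPM in the 6 earlier glands, so that both PI7 glands were the lowest of 10 (log2 fold change -2.36 ± 0.62). PTX3, a secreted pentraxin that binds hyaluronan-rich matrix, was at 4.22 and 181 CPM at PI2 and 3.50 and 2.46 CPM at PI7, and its level at PI2 came from replicate 2, just as L0 replicate 2 (142 CPM) stood above L0 replicate 1 (6.50 CPM). The log2 fold change of IGFBP2 was -2.97 ± 0.84. Each of these 3 had an edgeR adjusted p that rounded to 1.

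Outside lactation against lactation, KIAA1755, VPS72 and GTF2IRD1 were higher and FOXP2, GALNT15 and ASPN lower by the smallest p-values. KIAA1755 (chromosome 17, 41275501 to 41321328) was at 17.3 and 12.9 CPM at L0 and 14.4 and 21.2 CPM at L20, and at 44.2, 60.7 and 100.5 CPM in the lowest, median and highest of the 6 other glands. The groups did not overlap, and other nuclei had 2.02 to 16.0 CPM (log2 fold change 1.85 ± 0.42). ASPN (chromosome 3, 42165553 to 42192902) was at 260.1 and 412 CPM at L0 and 33.5 and 117 CPM at L20, and at 21.7, 43.3 and 68.5 CPM outside lactation, with L20 replicate 1 inside that range (log2 fold change -1.99 ± 0.41). FOXP2 was at 138 and 196 CPM at L20, and at 14.0, 69.0 and 116 CPM outside lactation, without overlap (log2 fold change -1.92 ± 0.38). In nuclei with at least 4 marker genes the groups of FOXP2 did overlap. There L20 replicate 1 (59.62 CPM) lay below both PI7 glands (71.96 and 62.11 CPM).

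GALNT15 (chromosome 13, 3329824 to 3371094), which starts O-linked glycans, was at 62.9 and 64.5 CPM at L0 and 58.6 and 301 CPM at L20, against 3.35, 21.3 and 35.1 CPM outside lactation (log2 fold change -2.48 ± 0.51). Other nuclei had 64.1 and 49.8 CPM of it at L0, 67.9 and 82.4 CPM at L20 and 6.21 to 41.8 CPM outside lactation. With at least 4 marker genes L20 replicate 1 was at 19.9 CPM, inside the range outside lactation (0 to 41.4 CPM). The chromatin gene VPS72 was at 2.17 and 0 CPM at L0 but at 35.0 and 22.3 CPM at L20, close to the lower end of the range outside lactation (33.5, 34.5 and 70.4 CPM). Its level in other nuclei was 12.4 and 13.7 CPM at L0, 41.0 and 36.3 CPM at L20 and 29.4 to 48.2 CPM outside lactation. The part of the RNA of other nuclei in the levels of GALNT15 and VPS72 was not tested. GTF2IRD1, a transcription factor, was at 13.0 and 12.9 CPM at L0 and 44.9 and 34.3 CPM at L20, against 30.1, 76.2 and 123 CPM, and was higher in other nuclei in all 10 glands. All 6 had an edgeR adjusted p between 0.687 and 0.758. DESeq2 called FOXP2, GALNT15 and ASPN among its 28 genes, 26 of which were lower outside lactation.

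**Figure D3:**
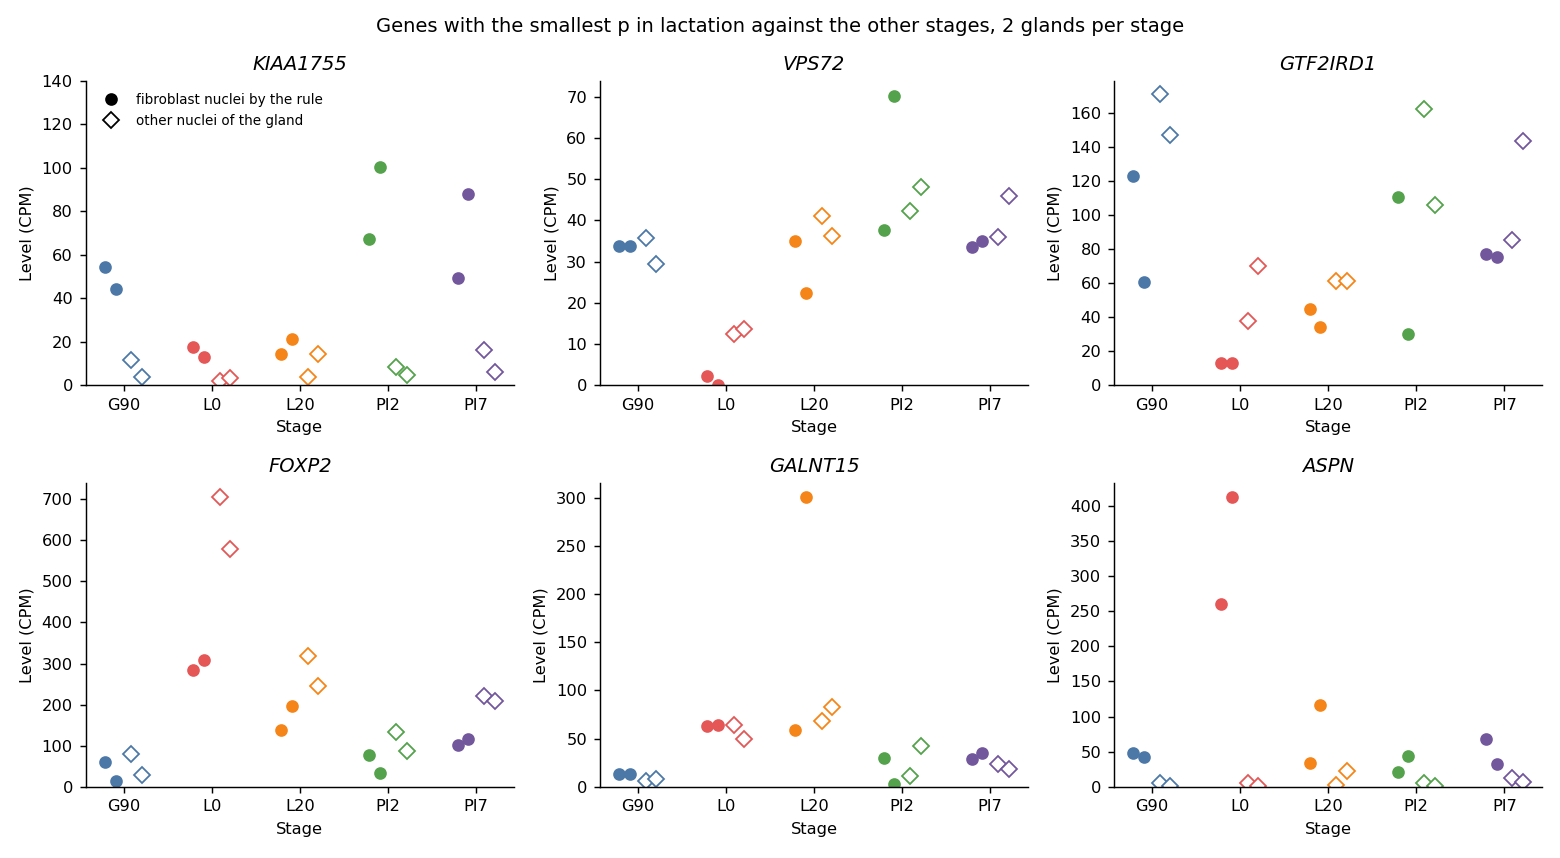
Levels (CPM) of the 6 genes with the smallest p between lactation (L0, L20) and the other stages, in fibroblast nuclei (filled circles) and in the other nuclei of the same gland (open diamonds), each point being 1 gland. KIAA1755 and ASPN lie mostly in fibroblast nuclei, while FOXP2 reaches 705 CPM in other nuclei of L0, above its 284 and 309 CPM in fibroblast nuclei.

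Gene lists drawn up with earlier results of these data known were then read by role, by the number of members at an unadjusted edgeR p under 0.05 with a log2 fold change over 1. edgeR called no member of any list at the adjusted threshold. Counts of members stand beside the shares of all genes that passed the same unadjusted criterion, 2.32% higher and 3.16% lower from G90 to L0, 3.49 and 2.12% to L20, 1.26 and 2.69% to PI2, 2.01 and 0.604% to PI7, and 1.96 and 2.02% outside against in lactation. Counts in nuclei with at least 4 marker genes stand beside the counts by direction given above for the 11379 genes tested there. Of the structural lists, collagens outside the rule (24 of 25 tested) summed to 4129 to 9039 CPM over the glands, highest in PI2 replicate 2. COL5A2, a fibril-forming collagen that sets fibril width, ranged over 481 to 1334 CPM. COL4A1, a chain of the basement membrane, was at 369 and 364 CPM (G90), 1116 and 864 (L0), 471 and 567 (L20), 216 and 1179 (PI2) and 257 and 327 (PI7). Its partner COL4A2 was at 352 and 2526 CPM at PI2 and 399 and 499 CPM at PI7, and for both chains PI2 replicate 2 stood far above replicate 1. From PI2 to PI7, 0 collagens were higher and 4 lower (COL4A2, COL12A1, COL13A1 and COL16A1), or 1 and 2 in nuclei with at least 4 marker genes, with a list median of -0.55 beside 0.00 over all genes. From G90 to L0, COL6A1 was higher, at 765 and 489.9 CPM after 204 and 148 CPM at G90, and COL23A1 and COL27A1 lower, with a list median of 0.38, and of 0.08 with at least 4 marker genes.

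Among proteoglycans (18 of 21 tested, 1645 to 3887 CPM), the heparan sulfate polymerase EXT1 was at 1260 and 1179 CPM at G90, 1347 CPM in PI2 replicate 2 and 507 to 905 CPM at L0, L20 and PI7. VCAN, the large hyaluronan-binding versican, was at 682 and 1158 CPM (G90), 459.6 and 529 (L0), 272 and 650.3 (L20), 244 and 720.3 (PI2) and 328 and 229 (PI7), so that G90 replicate 2 was highest and both PI7 glands were among the lowest 4. CHSY3, a chondroitin synthase, was lowest in L0 replicate 1 and PI2 replicate 1 (73.7 and 98.6 CPM). Outside lactation against lactation, 0 members were higher and 4 lower, the small leucine-rich proteoglycans PRELP, OGN, ASPN and OMD (1 and 6 with at least 4 marker genes), with a list median of -0.16 beside 0.05 over all genes. OGN was at 30.4 and 90.2 CPM at L0 and 6.09 and 165 CPM at L20, and OMD at 97.6 and 155 CPM at L0 and 4.56 and 93.2 CPM at L20, so L20 replicate 1 was as low as the glands outside lactation, which ranged over 0 to 32.5 and 3.35 to 41.4 CPM.

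Elastic fibre genes (17 of 17 tested) summed to 2456 and 2244 CPM (G90), 3811 and 4435 (L0), 1786 and 4766 (L20), 2658 and 3494 (PI2) and 2568 and 2843 (PI7). From G90 to L0, 5 were higher (MFAP4, LTBP2, LTBP3, LTBP4 and EMILIN1) and 0 lower, with a list median of 1.12 beside -0.16 over all genes, and of 0.79 in nuclei with at least 4 marker genes, where 3 were higher and 0 lower. FBN1, fibrillin, was at 858 and 726 CPM at G90, 969 and 1186 at L0 and 262 and 1460 at L20, and so did not pass in either step. EFEMP1 (111 to 777 CPM) and LTBP1 (185 to 516 CPM), which bind elastin or latent TGF-beta, did not pass in any comparison.

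Matrix glycoproteins (28 of 29 tested, 5334 to 11733 CPM) included 6 members higher at L0 than at G90 and 0 lower (SPARC, SPARCL1, THBS2, MGP, SMOC2 and TGFBI). In the step to L20 there were 0 higher and 4 lower (CCN2, MGP, SMOC2 and SVEP1). The counts in nuclei with at least 4 marker genes were 4 higher and 1 lower in the first step and 2 higher and 4 lower in the second. The list summed to 1912 and 1183 CPM at G90 and 2955 and 1858 CPM at L0 in the other nuclei, and the part of their RNA was not tested. SMOC2, a calcium-binding matricellular protein, was at 41.4 and 23.3 CPM at G90, 88.9 and 232 CPM at L0 and 32.7 and 53.0 CPM at L20. Outside lactation 2 were higher (THBS1 and CCN5) and 5 lower (TNXB, SPARC, SPARCL1, THBS4 and MGP), with a list median of -0.08. POSTN, a matricellular protein of growing connective tissue, was at 1867 and 2033 CPM (G90), 999 and 464 (L0), 599 and 956 (L20), 213 and 1595 (PI2) and 562 and 138 (PI7). Both G90 glands were the highest and PI2 replicate 2 came next, and the replicates of PI2 and of PI7 lay far apart. ABI3BP was at 820.3 and 1651 CPM at G90 and lowest in L20 replicate 1 and PI2 replicate 2 (93.6 and 127 CPM).

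Collagen processing genes (17 of 19 tested) summed to 1159 to 2798 CPM. PLOD2, which hydroxylates telopeptide lysines, was highest in PI2 replicate 2 (619.8 CPM, 150.4 to 358 CPM in the other stages), and ADAMTS2, a procollagen N-propeptidase, ranged over 91.0 to 308 CPM. PCOLCE, an enhancer of procollagen cleavage, was at 221 and 271 CPM at L0 and 241 and 229.9 CPM at L20, and at 74.3 and 94.7 CPM at PI7, where it was lowest of all stages. Outside lactation 0 were higher and 3 lower (LOX, which cross-links collagen, PCOLCE and ADAMTS3), with a list median of -0.14. From PI2 to PI7, PCOLCE was the lower member, with a list median of -0.87 beside 0.00 over all genes.

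Matrix degradation genes (22 of 28 tested) summed to 4053 and 3445 CPM (G90), 3096 and 3300.3 (L0), 3005 and 4533 (L20), 3544 and 7240.1 (PI2) and 4474 and 4908 (PI7). MMP2, gelatinase A, was at 115 and 116 CPM (G90), 243 and 206 (L0), 174 and 1066 (L20), 727 and 117 (PI2) and 627 and 1183 (PI7). It was high at PI7, in L20 replicate 2 and in PI2 replicate 1, and low at G90, at L0 and in the other gland of L20 and of PI2, so its split ran across the stages. In nuclei with at least 4 marker genes the levels were 378 and 1313 CPM at L20 and 1240 and 164 CPM at PI2. TIMP3, an inhibitor of metalloproteinases bound to matrix, was at 139 and 74.5 CPM (G90), 121 and 193 (L0), 195 and 338 (L20), 294 and 2600 (PI2) and 508 and 315 (PI7), so PI2 replicate 2 alone set its place at PI2 (log2 fold change 2.43 ± 0.82 from L20 to PI2). ADAM12, a membrane metalloproteinase of mesenchyme, was at 989 and 677 CPM (G90), 212 and 464 (L0), 555 and 214 (L20), 487 and 1397 (PI2) and 806 and 611 (PI7), and with PLAT was 1 of 2 members higher outside lactation, where 0 were lower.

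**Figure D4:**
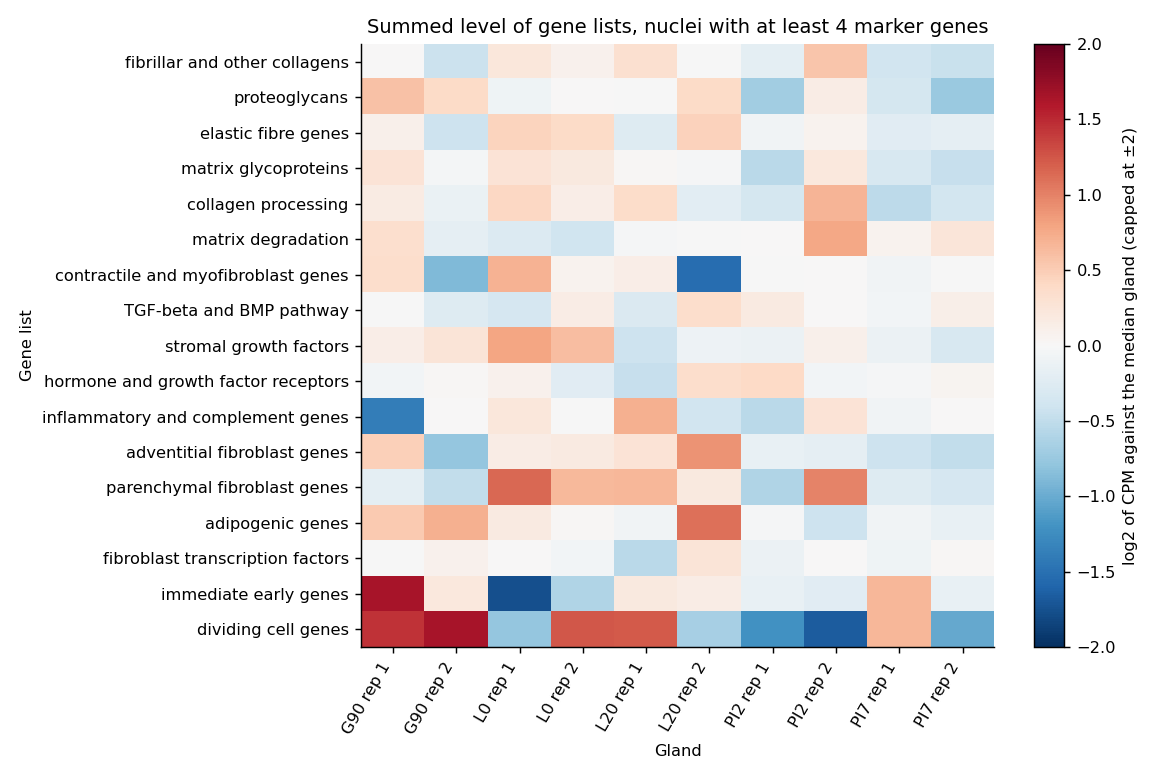
Summed level of 17 gene lists in nuclei with at least 4 marker genes, as log2 of the CPM against the median gland, for each gland in the order of the stages. Parenchymal fibroblast genes and growth factors are redder at L0 than at G90, contractile genes are bluest in L20 replicate 2, and replicates of a stage often differ in colour.

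Signals and receptors were read next. Stromal growth factors (28 of 33 tested) summed to 3270 and 4389 CPM (G90), 5899 and 6665 (L0), 2037 and 3982 (L20), 3473 and 4201 (PI2) and 3633 and 3468 (PI7), with both L0 glands above the other 8. SLIT2, a secreted guidance ligand, was at 553 and 1193 CPM at G90, 1652 and 2359 at L0 and 252 and 582 at L20 (log2 fold change from L0 to L20 -2.18 ± 0.65). PDGFD, a ligand of PDGF receptors, was at 209 and 479.5 CPM at G90, 997 and 954 CPM at L0 and 68.5 and 577 CPM at L20. SLIT3 ranged over 242 to 749 CPM. From G90 to L0, HGF and IGFBP7 were the 2 higher members and FGF1, IGF1 and NRG1 the 3 lower. In the step to L20, IGF1 and NRG1 were the 2 higher and HGF, IGFBP7, ANGPT1 and SLIT2 the 4 lower, so HGF, IGFBP7, IGF1 and NRG1 stood on opposite sides in these steps, which share the L0 glands. With at least 4 marker genes the counts were 2 higher and 5 lower, then 3 higher and 5 lower. IGF1, an insulin-like growth factor, was at 121 and 185 CPM at G90, 30.4 and 25.8 at L0 and 110.3 and 92.2 at L20.

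TGF-beta and BMP genes (22 of 24 tested) summed to 2551 to 4025 CPM. TGFBR3, betaglycan, ranged over 341 to 1262 CPM, TGFBR2 over 127 to 532 CPM and BMPR1A over 191 to 361 CPM. Between L0 and L20, 3 were higher (BMP5, CHRDL1 and SMAD3) and 1 lower (TGFB3), and BMP5 and CHRDL1 were the 2 lower members from L20 to PI2. BMP5 was at 5.33 and 195 CPM at L20, and its level rested on replicate 2. Among hormone and growth factor receptors (19 of 20 tested, 3295 to 6759.6 CPM), the thyroid hormone receptor THRB was at 370.5 to 1551 CPM, IL6ST, the shared receptor of the interleukin 6 family, at 315 to 797 CPM and the interleukin 1 receptor IL1R1 at 303 and 362 CPM at G90 and up to 1142 CPM in PI2 replicate 2. TNFRSF1A was higher from G90 to L0, and outside lactation PRLR, the prolactin receptor, was higher and VDR, the vitamin D receptor, lower. PRLR (921 against 88.2 CPM in the rest) was also among the leading genes of cluster 6 described below, which carried luminal markers. The receptor list summed to 2631 to 6288 CPM in the other nuclei, and the part of their RNA was not tested. None of the receptors passed in either direction in the 3 steps after L0, but with at least 4 marker genes 1 was higher from L20 to PI2.

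Inflammatory and complement genes (22 of 31 tested) summed to 912 and 2481 CPM (G90), 3022 and 2398 (L0), 7213 and 1858 (L20), 1832 and 3826 (PI2) and 2283 and 2623 (PI7), with L20 replicate 1 the highest. The other nuclei were at 3223 and 3077 CPM (L0), 7009.7 and 1377 (L20) and 1829 and 8114 (PI2), and the fibroblast nuclei were above them in 5 of 10 glands. CXCL2, a chemokine for neutrophils, was at 3203 CPM in L20 replicate 1 and 56.3 CPM in L20 replicate 2, and at 95.3 to 724 CPM elsewhere. Its level in the other nuclei of L20 was 3048 and 138 CPM. C3, the central complement component, was at 66.7 and 59.4 CPM (G90), 629 and 580.1 (L0), 1223 and 106 (L20), 126 and 606 (PI2) and 264 and 310 (PI7), and STAT3 was highest in L20 replicate 1 and PI2 replicate 2 (853 and 643 CPM). Outside lactation 0 members were higher and 3 lower (CXCL2, C3 and SERPING1), with a list median of -0.15, and of 0.04 in nuclei with at least 4 marker genes.

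Contractile and myofibroblast genes (12 of 14 tested) ranged from 729 CPM in L20 replicate 2 to 3262 CPM in L0 replicate 2. From L0 to L20, 1 was higher (CTHRC1) and 6 lower (ACTA2, TAGLN, CNN1, MYH11, ACTG2 and MYLK), with a list median of -1.14 beside 0.25 over all genes and -1.30 in nuclei with at least 4 marker genes. ACTA2, smooth muscle actin, was at 356 and 348 CPM at L0 and 17.5 and 17.4 CPM at L20. MYH11, CNN1 and ACTG2 are on the myoepithelial list too, and that list stood at 730 and 249 CPM at L0 and 308 and 59.9 CPM at L20 in nuclei with at least 4 marker genes. ACTA2, TAGLN and MYH11 are also known from mural cells, and of 6 mural markers tested 0 were higher and 2 lower from L0 to L20 (NOTCH3 and GUCY1A1), with a list median of -0.97, and of -1.53 in nuclei with at least 4 marker genes. The part of either cell type in the contractile counts was not tested. TPM1, a tropomyosin of many cells, was at 178 to 2138 CPM and PALLD at 121 to 412 CPM.

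Adventitial fibroblast genes (9 of 12 tested) summed to 682 to 2379 CPM, with L20 replicate 2 the highest, and parenchymal ones (10 of 12 tested) to 1963 and 1994 CPM (G90), 6094 and 4847 (L0), 2653 and 3343 (L20), 1619 and 5726 (PI2) and 2282 and 2246 (PI7). The parenchymal sum in other nuclei was 776 and 822 CPM at G90 and 2642 and 1611 CPM at L0, beside milk protein sums in the fibroblast nuclei of 791 and 3065 CPM at G90 and 6983 and 2875 CPM at L0, which overlapped. The part of either was not tested. PI16 was highest at L0 (290.5 and 503 CPM) and in L20 replicate 2 (480.2 CPM), SEMA3C ranged over 97.8 to 551 CPM and LIMCH1 over 81.4 to 570 CPM. Outside lactation 3 adventitial (PI16, SEMA3C and MFAP5) and 3 parenchymal genes (PENK, SPARCL1 and MGP) were lower and 0 of either list higher, with list medians of 0.09 and -0.86. In nuclei with at least 4 marker genes the medians were -0.32 and -0.94, so that of the adventitial list changed sign.

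Adipogenic genes (21 of 22 tested) ranged from 2559.7 CPM in PI2 replicate 2 to 7107 CPM in L20 replicate 2. EBF1, a transcription factor of adipocyte precursors, was at 4300 CPM in L20 replicate 2 and 675 CPM in L20 replicate 1. Outside lactation 0 were higher and 5 lower (CEBPD, LPL, FABP4, CD36 and PLIN2), beside adipocyte markers of 32.6 to 124 CPM over the glands and milk protein genes of which 4 of 4 were lower (list median -2.83). In the other nuclei the adipogenic sum averaged 3081 CPM in lactation and 2100 CPM outside it, and the part of their RNA was not tested. PLIN2 was at 332 and 438 CPM at L0 and 532 and 119.6 CPM at L20 against 99.1 to 265 CPM. ZFP36L1 ranged over 149 to 354 CPM. Fibroblast transcription factors (21 of 28 tested) kept to 3624 to 7597 CPM, with NFIA at 498 to 1934 CPM, NFIB at 325 to 1520 CPM and ZEB1 at 323 to 1377 CPM, and 0 passed in either direction from G90 to L0 or outside lactation. From L0 to L20, 1 was higher and 2 lower (among TBX3, NR2F1 and NR2F2), but 0 with at least 4 marker genes. NR2F1 was higher from L20 to PI2 (2 members with at least 4 marker genes). TWIST2 and NR4A1 were lower from PI2 to PI7 (also 2 members with at least 4 marker genes).

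Dividing cell genes (10 of 12 tested) summed to 525 and 557 CPM (G90), 186 and 219 (L0), 258 and 116 (L20), 69.4 and 46.9 (PI2) and 229.8 and 89.8 (PI7). TOP2A, a topoisomerase of cycling cells, was at 66.7 and 85.0 CPM at G90, 33.5 and 10.3 CPM at L20 and 1.30 and 0 CPM at PI2. CENPF (97.6 and 104 CPM at G90) and CENPE (124 and 216 CPM), kinetochore genes, were likewise higher at G90 than at PI2 (0.973 and 6.70 CPM for CENPF, 33.7 and 6.70 CPM for CENPE). From L20 to PI2, 0 members were higher and 7 lower (TOP2A, CENPF, ASPM, BUB1, KIF11, ANLN and MELK), with a list median of -2.72 beside -0.06 over all genes, and 3 were higher from PI2 to PI7 (TOP2A, ASPM and ANLN), with a list median of 2.00. With at least 4 marker genes 5 members were lower from L20 to PI2, and none of the 10 was higher from PI2 to PI7. Other nuclei of the glands had 591 and 1342 CPM (G90), 281 and 219 (L20), 116 and 99.9 (PI2) and 253 and 104 (PI7). Immediate early genes (9 of 14 tested) were lowest at L0 (249 and 361 CPM) and highest in G90 replicate 1 and L20 replicate 1 (1554 and 1457 CPM). The other nuclei were likewise lowest at L0 (171 and 229 CPM) and had 945 and 1330.4 CPM in the other 2 glands. FOS and EGR1 were the 2 lower members from G90 to L0 and the 2 higher from L0 to L20, with EGR1 at 264 and 105 CPM (G90), 34.7 and 51.6 CPM (L0) and 201 and 146 CPM (L20), while JUN ranged over 17.5 to 199 CPM.

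The 5878 nuclei with at least 4 marker genes were clustered to describe how they vary, which gives no test of the genes that lead a cluster. Cluster 1 (2343 nuclei) was present in each gland, from 29.1% in L20 replicate 1 to 61.0% in PI2 replicate 1, and was led by DUOX2, LGR5, CPXM2 and HMCN1 (1376 against 589 CPM in the rest). Within glands, DUOX2 was higher in 6 of 10, LGR5 in 7 and CPXM2 and HMCN1 in 8 each. Cluster 2 (1063 nuclei) held 21.6 to 30.3% of the nuclei in 9 glands but 1.31% in L20 replicate 2. It was led by FREM1, HHLA2 and TRPM3 and by ADAM12 (2027 against 403 CPM), COL21A1 (610 against 109 CPM) and RXFP1 (852 against 172 CPM), with 592 CPM of adventitial genes against 2244 CPM in cluster 1. Cluster 3 (959 nuclei, 851 of them from L20 replicate 2, where they were 37.2%) was led by MYOC, LPL (1139 against 161 CPM), KCNQ5, DPT and AGTR1. MYOC and KCNQ5 were higher in 1 of the 5 glands with enough nuclei and CLEC3B and MFAP5 in 5 of 5. The cluster had the highest sums of marker genes (27855 CPM), adventitial genes (3999 CPM) and adipogenic genes (9512 CPM) of the 8 clusters.

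Cluster 4 (419 nuclei, 19.2% of G90 replicate 1) was led by ACTA2 (743 against 38.0 CPM), KCNAB1, CCN3 and MYH11, with 3194 CPM of contractile genes and with the highest sums of myoepithelial (683 CPM) and mural markers (446 CPM) of the 8 clusters. Cluster 5 (363 nuclei, 275 from L20 replicate 2 and 72 from PI7 replicate 1) was led by genes best known from neurons (DPP6, DSCAM, ASIC2 and RBFOX3) and had the fewest UMIs, a median of 1451. Cluster 6 (296 nuclei) was led by CSN1S1 (843 against 43.6 CPM), XDH and ELF5, with 2243 CPM of luminal markers, and made up 22.4% in L20 replicate 1 and 1.05 to 16.2% elsewhere. Cluster 7 (235 nuclei) was led by SPP1 (3718 against 138 CPM), ACP5, HLA-DRA, SRGN and LAPTM5, with 834 CPM of macrophage, 1232 CPM of lymphocyte and 1037 CPM of luminal markers. Cluster 8 (200 nuclei, 199 from L20 replicate 2) came almost wholly from that gland, and its leading genes are not described. Clusters 4, 6 and 7, 7.13, 5.04 and 4.0% of these nuclei, were thus among those that carried genes of other cell types although all excluding genes were at 0. Replicates of a stage differed most at L20, where cluster 3 made up 7.85% of replicate 1 and 37.2% of replicate 2, cluster 5 2.03 and 12%, and cluster 8 0 and 8.7%. All these shares rest on clusters made after each gland was centred on its own mean. Without centring, cluster 1 was spread over groups that took 843, 613 and 428 of its nuclei, among others. The first of these groups also took 397 nuclei of cluster 2. Clusters 3, 4, 5 and 8 stayed more together, with 846, 352, 320 and 192 nuclei in 1 group each. The group of cluster 3 was the one that took 613 nuclei of cluster 1. Clusters 5 and 8 fell in the one that took 428 nuclei of cluster 1.

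**Figure D5:**
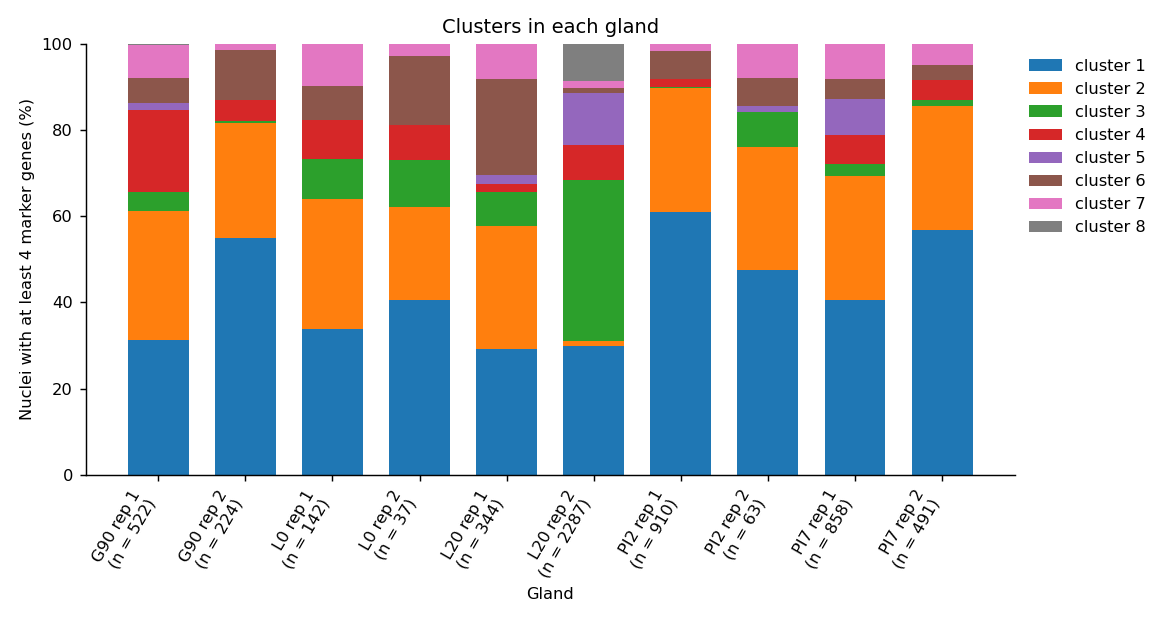
Make-up (%) of the nuclei with at least 4 marker genes by cluster, for each gland with its number of nuclei. Cluster 2 is 21.6 to 30.3% in 9 glands and 1.31% in L20 replicate 2, where cluster 3 is 37.2% and cluster 8 is 8.7%.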

How the data were processed

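The authors deposited UMI counts per gene and nucleus, with symbols for 15457 of 28711 gene identifiers, made from single-nucleus libraries of 10 pig mammary glands with CeleScope on Sscrofa11.1. For the annotation release, the version was not given in the sources used here. Another 644 identifiers took their symbol from RefSeq, and 35 of 451 genes on the lists had no match. UMIs of the fibroblast nuclei were summed per gland, genes were kept by edgeR's filter on low counts, and stages were compared with the quasi-likelihood test of edgeR 4.0.16 in R 4.3.3 (normalization by TMM, replicates not blocked), in 1 fit of 10 glands with at least 77155 UMIs each in the genes kept. DESeq2 1.42.0 was an alternative. Nuclei with at least 4 marker genes were clustered on a nearest-neighbour graph with igraph 0.11.9, with each gland centred. The test was checked on simulated data, where at a spread like that of these glands it missed many of the large changes put in. Doublets were not removed in the main results. Scrublet marked 0.327% of nuclei by its own thresholds, 416 of these 418 in PI7 replicate 2, and so had not worked in the 9 other glands. As an alternative, 5901 nuclei with the highest doublet scores were left out (4.61%, at most 5% of a gland). The rule, the gene lists and the tests were chosen with earlier results of these data known. Named genes were the 15 genes of the rule, the 20 genes outside it with the largest median excess over other nuclei at a mean of at least 50 CPM, the called genes of each comparison or, where fewer than 3 were called in a direction, the 3 with the smallest p, and of each list the called genes or otherwise up to 3 with the highest mean CPM. Further genes were chosen after their values were seen. Free RNA was estimated per gland as the ratio of the luminal and milk marker share in fibroblast nuclei to that in other nuclei, at most 1, and for that alternative this share of the profile of the other nuclei was subtracted. Intervals cover counting error only. Tissue sections and milk samples were not used here.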

Additional observations from a re-analysis of the deposited data

Results flagged for a closer look

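Groups of 4 to 6 glands were searched for a gland far from the others by Dixon's criterion in 16 groups, of which chance flags about 1 in 20, and 3 stood out. The share of nuclei with at least 4 marker genes was 14.93% in L20 replicate 2, while the 3 other lactation glands had 0.393 to 2.66%. GALNT15 was at 300.6 CPM in the fibroblast nuclei of the same gland, against 58.6 to 64.5 CPM in the rest of lactation. VPS72 was at 70.36 CPM in PI2 replicate 2, against 33.5 to 37.6 CPM in the 5 other glands outside lactation.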

How the results depend on the processing

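The share of fibroblast nuclei outside lactation minus that in lactation (-0.37 percentage points) kept its sign with at least 3 or 4 marker genes, 500 detected genes, at most 5% mitochondrial UMIs, thinned nuclei, 10 more excluding genes and without doublets (-1.48 to -0.45). It turned to 6.24 with L0 alone as lactation. With 1 gland left out it ranged from -2.86 to 4.50 (exact permutation p from 0.167 to 0.952), turning without G90 replicate 2 (0.811), L20 replicate 2 (4.50) or PI2 replicate 2 (0.877). Counts of edgeR calls are given for G90 to L0, L0 to L20, L20 to PI2, PI2 to PI7 and outside against in lactation. The main fit gave 0 in each, as did DESeq2 size factors, at least 3 or 4 marker genes, 10 more excluding genes and doublets left out. An unadjusted p under 0.05 with the fold over 1 gave 753, 771, 542, 359 and 547, no filter on low counts 77, 118, 54, 23 and 114, DESeq2 29, 33, 3, 4 and 28, and free RNA subtraction 0, 1, 1, 0 and 1 (PDE7B each time). Fits of 2 stages alone gave 31, 0, 0 and 0, and of 2 groups 0. With 1 gland left out they ranged over 0 to 0, 0 to 7, 0 to 15, 0 to 1 and 0 to 24. The 7 and 15 came without L20 replicate 1, which also gave 17 outside against in lactation, the 24 without L20 replicate 2, and the 1 (ACP5) without PI7 replicate 2. From L0 to L20 there were also 4 without either G90 gland (MYH11, ACTA2 and 2 genes without a symbol) and 1 (IGFBP2) without either PI2 gland. From L20 to PI2 there was 1 (IGFBP2) without PI2 replicate 1, and outside against in lactation 1, a gene without a symbol, without G90 replicate 2. A stage left with 1 gland is assumed to vary like the others. The cause of these differences was not tested.

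Replicate numbers did not pair the glands, since deviations of same-numbered glands correlated at -0.39 to 0.332 over 10 pairs of stages. The replicate block gave 0 calls in each comparison, with 616, 681, 466, 251 and 547 genes at an unadjusted p under 0.05 at any fold, against 753, 772, 543, 359 and 705 without the block. Of 594 values of the named genes under the alternatives, 592 kept their sign, the exceptions being PIK3C2G (6.0) and CPSF6 (5.64) after free RNA was subtracted, and 62 moved by 1 SE or more, 16 of them among the 30 with free RNA subtracted. Depth limited L0 most, where replicate 2 had 55 fibroblast nuclei and 77569 UMIs. A gene at 0 there had no UMI at this depth, which does not show that it was absent. The free RNA estimate, the ratio of the luminal and milk marker share in fibroblast nuclei to that in other nuclei, was 35.1 to 77.8%. This ratio cannot tell free RNA from luminal nuclei that met the rule, so it is not a measured share of free RNA. The limit of at least 4 marker genes and the fit of 2 groups were chosen after seeing the data.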

Other observations

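Nuclei with at least 4 marker genes were also split by genes known from the position of a fibroblast, with UMIs of PI16, DPP4, MFAP5 or SEMA3C and none of COL15A1, CXCL12 or PENK (adventitial) or the reverse (parenchymal). The adventitial group held 20.6 to 50.7% of these nuclei in a gland and the parenchymal group 8.92 to 38.1%. By stage the adventitial share was 34.5 and 22.8% (G90), 40.8 and 32.4% (L0), 34.0 and 50.7% (L20), 25.1 and 20.6% (PI2) and 21.6 and 25.5% (PI7), and the parenchymal share was 24.4 and 38.1% at PI2 and 32.3 and 28.5% at PI7 against 8.92 to 25.9% in the 6 earlier glands, so that PI2 replicate 1 lay within the earlier range. Median UMIs per nucleus were 1144 to 2713 in the adventitial and 1178 to 3065 in the parenchymal groups, and these shares were not thinned or tested.

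Genes that the split did not use were compared in 9 glands, without L0 replicate 2, which had 4 parenchymal nuclei, as a description with no test. Those named were picked after their values were seen, so their agreement over glands is not a result about these genes. COL14A1, a collagen on the surface of fibrils, was at 649 ± 214 CPM (SD, n = 9) in the adventitial and 197 ± 112 CPM in the parenchymal group. TNXB (tenascin X, 556 ± 319.6 against 145 ± 87.3 CPM), FBLN2 (fibulin 2, 374 ± 201 against 84.2 ± 51.8 CPM), ASPN (162 ± 156 against 43.3 ± 26.0 CPM) and CHRDL1, an antagonist of BMP (212 ± 134 against 97.6 ± 80.2 CPM), were likewise higher in the adventitial group in 9 of 9 glands. The other way round were the metalloproteinase ADAM12 (545 ± 242 against 1416 ± 825 CPM), the transcription factor RUNX2 (291 ± 161 against 658 ± 266 CPM), the collagens COL21A1 (201 ± 123 against 441 ± 266 CPM) and COL27A1 (47.4 ± 32.3 against 141 ± 81.5 CPM), and CDH11 (749.9 ± 504 against 1067 ± 505 CPM), all higher in the parenchymal group in 9 of 9 glands. FGF10 and POSTN did not take a side, the adventitial group being higher in 4 and 5 of 9 glands.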
